A study of Mus musculus with 9 samples.

Results

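The genes described are 10 genes of TGF-beta and activin signaling, Tgfb1, Tgfb2, Tgfb3, Inhba, Inhbb, Fst, Ltbp1, Tgfbr1, Tgfbr2 and Tgfbr3, chosen by symbol from the 54532 genes of the deposited table. Each symbol matched 1 row. The table holds RNA-seq read counts of mouse lambdoidal junction tissue, where the maxillary prominence meets the medial and lateral nasal prominences and all fuse into the upper lip and primary palate. The embryos were C57BL/6J, with no treatment or engineered allele named in the labels, and were taken at embryonic day 10.5 (E10.5), a day later (E11.5) and another day after that (E12.5). Each stage had 3 libraries, and tissue of several embryos was pooled for each of them. The questions were which of the genes changed between stages, and whether they changed in the first day (E11.5 against E10.5) or in the second day (E12.5 against E11.5). The comparison of E12.5 with E10.5 is called that over both days.

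TGF-beta ligands are secreted as latent complexes, which latent TGF-beta binding proteins such as Ltbp1 tether to the extracellular matrix until the ligand is released. A free ligand dimer binds the type II receptor Tgfbr2, which recruits and phosphorylates the type I receptor Tgfbr1, and the receptor complex then phosphorylates Smad2 and Smad3. Tgfbr3, or betaglycan, is a coreceptor that presents ligand to Tgfbr2 and is needed most by Tgfb2. Activins are dimers of the inhibin beta chains encoded by Inhba and Inhbb. They signal through their own receptors to the same Smads, and follistatin, the product of Fst, binds them and blocks receptor binding. Tgfb3 is known for its role in fusion of the palatal shelves, and mice without Inhba have defects of the whiskers, incisors and palate.

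Depth was 16581009–20836804 counts per library. One library stood apart from the rest. In E10.5 replicate 3 the SD over genes of the log2 difference from the mean of the other libraries of its stage was 0.679. It was 0.317–0.486 in the other 8, each set against its own stage. The difference of E10.5 replicate 3 was related to GC content (Spearman's rho = −0.546 over genes, which are not independent replicates). In the same library the summed level of 7 endothelial markers was 118 CPM, against 315 and 326 CPM in E10.5 replicates 1 and 2, and that of 9 facial mesenchyme markers was 1194 CPM against 1981 and 1982 CPM. The sum of 8 surface ectoderm markers was higher there, at 713 CPM against 395 and 446 CPM. Results that involve E10.5 are therefore given with and without this library. In bulk tissue, fewer cells of a type and less RNA per cell cannot be told apart.

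Levels are given as CPM, the share of a library's reads after TMM scaling of the 9 library sizes, and levels of different genes are compared only as CPM per kb of gene length. On the CPM per kb scale, Tgfbr1 had the highest level of the 10 genes at each stage, with a mean of 47.9 at E10.5 (41.5–60.6 over the 3 libraries), 48.8 ± 1.30 a day later and 33.3 ± 6.29 at the last stage (SD, n = 3 libraries). Inhbb had the lowest, at 0.0939 ± 0.0234, 0.0761 ± 0.0493 and 0.230 ± 0.00929 CPM per kb. Between these ends the order moved with stage. At E10.5 the level of Ltbp1 followed at 5.29 CPM per kb, and Tgfb3, Tgfb2, Tgfb1, Tgfbr2 and Tgfbr3 lay between 3.80 and 2.27 CPM per kb, each overlapping its neighbor in the order. Fst (0.788 CPM per kb) lay apart from both its neighbors, and Inhba (0.143 CPM per kb) overlapped Inhbb. By E11.5, Tgfb2 had moved to the second place at 13.7 CPM per kb, apart from both its neighbors, and Inhba (2.97 CPM per kb) was next to Fst (2.96 CPM per kb), with overlapping libraries. At E12.5 the libraries of Tgfb2 (18.1 CPM per kb) overlapped those of Ltbp1 (12.6), and those of Ltbp1 overlapped those of Tgfb3 (12.1). Tgfbr2, Fst, Tgfbr3, Inhba and Tgfb1 then lay between 6.64 and 4.70 CPM per kb, each overlapping its neighbor, so that their order at E12.5 is not resolved.

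**Figure D1:**
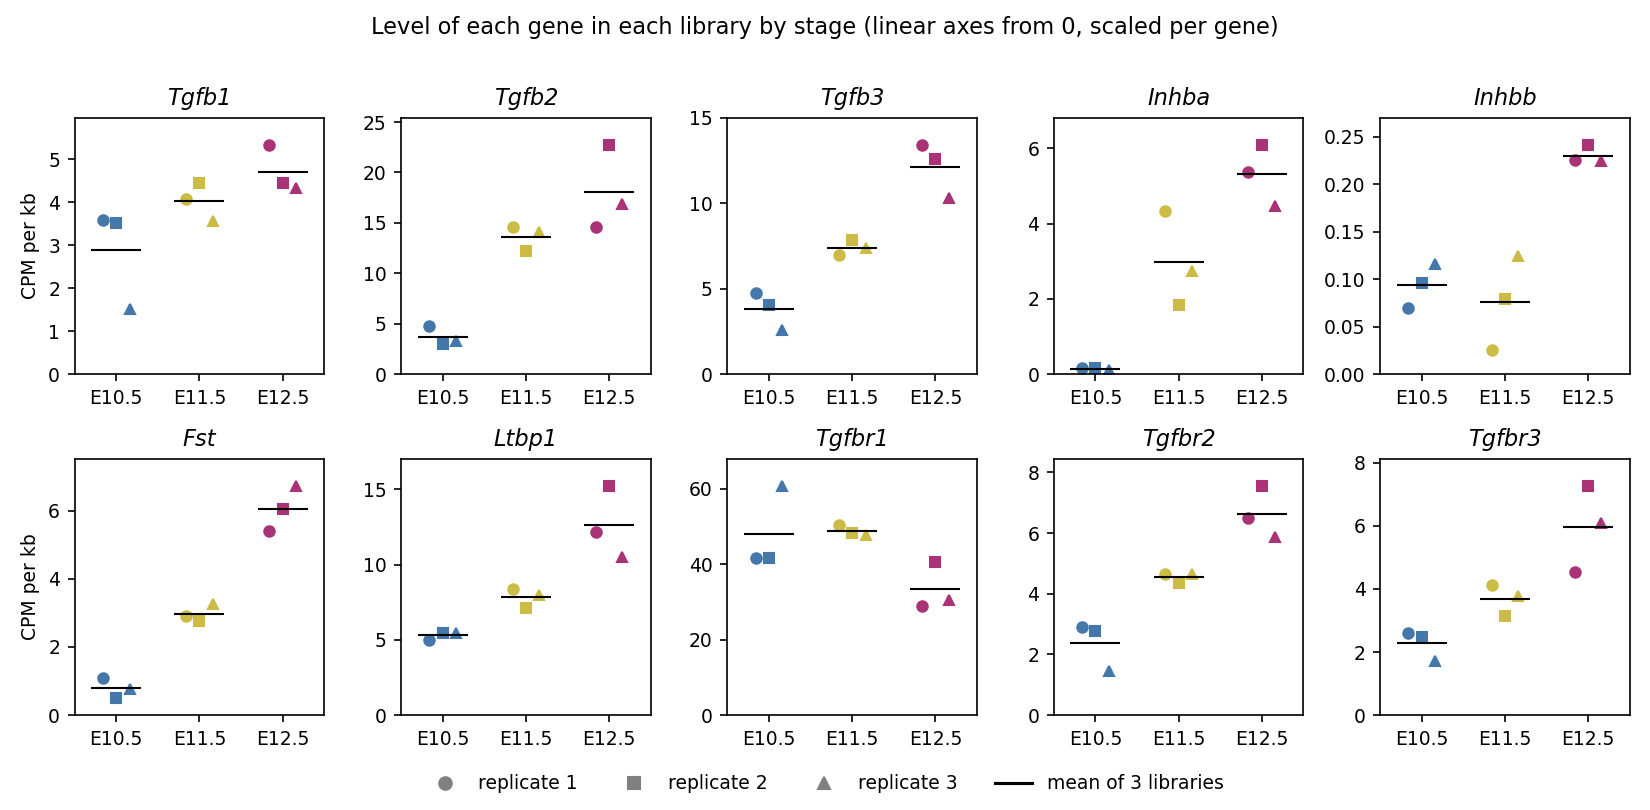
Each panel shows the level of 1 gene as CPM per kb of gene length (vertical axis, linear from 0, scaled per gene) in the 3 libraries of each stage (horizontal axis), with the replicate number as the symbol and the stage mean as a line. The E10.5 libraries of Inhba lie between 0.0969 and 0.167 CPM per kb and its later libraries between 1.84 and 6.08, while Tgfbr1 is highest in E10.5 replicate 3 (60.6 CPM per kb) and lower in all 3 E12.5 libraries (28.8–40.5) than in the E11.5 libraries.

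The promoters of Inhba and Tgfb2, which together with Fst changed most in the first day, are shown with that of Tgfbr1, the gene with the highest level and the one that fell, so that the sequence before each start can be read beside its counts. RefSeq promoters (GRCm38.p6) of 300 bases, from 250 before to 50 after the gene start, were matched by symbol for 7 of the 10 genes, all but Tgfb3, Fst and Tgfbr3. The 250 bases before the start are printed 5′ to 3′ on the strand of the gene, with the motif matches in capitals.
Inhba (chr13:16011601-16011850, plus strand): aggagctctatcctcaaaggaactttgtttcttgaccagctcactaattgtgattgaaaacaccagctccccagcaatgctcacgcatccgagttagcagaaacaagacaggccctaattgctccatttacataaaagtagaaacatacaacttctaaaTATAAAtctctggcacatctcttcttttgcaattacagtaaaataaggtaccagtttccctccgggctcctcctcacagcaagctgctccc
Tgfb2 (chr1:186705990-186706239, minus strand): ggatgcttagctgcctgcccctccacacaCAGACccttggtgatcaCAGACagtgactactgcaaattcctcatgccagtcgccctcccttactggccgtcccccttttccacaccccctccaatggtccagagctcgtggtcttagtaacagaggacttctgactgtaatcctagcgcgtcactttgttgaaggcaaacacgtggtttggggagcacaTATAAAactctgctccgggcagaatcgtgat
Tgfbr1 (chr4:47352972-47353221, plus strand): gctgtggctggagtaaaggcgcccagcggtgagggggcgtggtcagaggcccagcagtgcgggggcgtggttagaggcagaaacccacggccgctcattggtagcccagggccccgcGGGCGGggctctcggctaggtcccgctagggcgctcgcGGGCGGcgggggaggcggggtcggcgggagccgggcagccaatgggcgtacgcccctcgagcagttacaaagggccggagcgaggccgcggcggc

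Both strands of the 300-base windows were searched for a TATA box (TATAAA, in 13.6% of 32851 RefSeq promoters), a GC box (GGGCGG, 35.7%), an AP-1 site (TGANTCA, 7.81%), a cyclic AMP response element (TGACGTCA, 1.79%) and a SMAD-binding motif (CAGAC, 49.6%), and no matches overlapped. With the base before the start as −1, the TATA box letters began at −91 in Inhba and at −31 in Tgfb2. Tgfb2 also had SMAD-binding motifs at −221 and −204. Tgfbr1 had GC boxes at −133 and −95. Of the genes not shown, Tgfb1 had 6 GC boxes, Inhbb 1 GC box, Tgfbr2 1 SMAD-binding motif, and Ltbp1 1 cyclic AMP response element and 1 SMAD-binding motif. The GC content of the window was 47.7% in Inhba, 54.3% in Tgfb2 and 74.7% in Tgfbr1, where the median of all promoters was 52.7%. The matches are a description of the letters in these windows and were not tested for function.

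The counts of each pair of stages were tested on its own 6 libraries with the quasi-likelihood test of edgeR and Benjamini-Hochberg adjustment over all genes tested (named the edgeR adjusted p in the text). Genes with an adjusted p of at most 0.05 are said to have risen or fallen, and those that also changed at least 2-fold are called DEGs. The 3 libraries of a stage are separate pools of embryos, and the p-values measure the spread between these pools. An exact permutation test of 3 libraries against 3 cannot give a p below 0.1, so the tests rest on edgeR's estimate of the spread, which borrows from all genes.

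Among the TGF-beta ligands, Tgfb2 and Tgfb3 rose and Tgfb1 did not pass the test in any comparison. Tgfb2 (chromosome 1 of GRCm38, 186622792–186705989, minus strand) was at 27.5, 17.4 and 19.1 CPM in the E10.5 libraries, at 84.5, 70.8 and 81.9 CPM at E11.5 and at 84.6, 131 and 98.0 CPM by E12.5. All later libraries lay above the E10.5 libraries, while the highest E11.5 and the lowest E12.5 library nearly touched. In the first day the log2 fold change was 1.90 (standard error 0.18, 3.72-fold, edgeR adjusted p = 0.00146), and 1.82 without E10.5 replicate 3. In the second day the log2 fold change was 0.40 (standard error 0.16, edgeR adjusted p = 0.134).

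Tgfb3 (chromosome 12, 86056745–86079041, minus strand) rose in both days. Its level was 16.1, 13.8 and 8.67 CPM at E10.5, 23.5, 26.6 and 25.0 CPM in the E11.5 libraries and 45.3, 42.5 and 34.7 CPM by E12.5, so that the 3 stages did not overlap. Its log2 fold change was 0.97 (standard error 0.22, edgeR adjusted p = 0.0267) in the first day and 0.70 (standard error 0.14, edgeR adjusted p = 0.00923) in the second. Without E10.5 replicate 3, the lowest of its libraries, the first rise was 0.75. Of the exon sequence of Tgfb3, 12.4% overlaps the antisense genes Gm37804 and Gm48008, whose reads cannot be told apart from its own if the counting did not use the strand.

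Tgfb1 (chromosome 7, 25687002–25705077, plus strand) varied most with the library that stood apart. It was at 18.1, 17.8 and 7.62 CPM in the E10.5 libraries, at 20.5, 22.4 and 17.9 CPM at E11.5 and at 26.8, 22.4 and 21.8 CPM by E12.5. The neighboring stages overlapped, and E10.5 replicate 3 lay at −1.24 on the log2 scale relative to the mean of replicates 1 and 2, the lowest such value among the 10 genes. Endothelial markers were low in the same library (118 CPM against 315 and 326 CPM), and their part in the value was not tested. The log2 fold changes of Tgfb1 were 0.49 (standard error 0.30) in the first day, or 0.18 without that library, and 0.22 (standard error 0.15) in the second day. Over both days it was 0.72 (standard error 0.30, edgeR adjusted p = 0.104), or 0.41 without that library, and it passed with all genes of at least 1 count (edgeR adjusted p = 0.0194) and with the replicate number as a block (0.0377). Relative to one another on the CPM per kb scale, Tgfb2 made up 36.2%, 28.3% and 44.7% of the 3 ligands in the E10.5 libraries, 57.0%, 49.8% and 56.4% at E11.5 and 43.9%, 57.1% and 53.7% by E12.5. The share was thus higher at E11.5 than at E10.5 in every library, and 1 of the E12.5 libraries fell within the E10.5 range.

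The largest change of the 10 genes was that of Inhba (chromosome 13, 16011851–16031621, plus strand), which encodes the chain of activin A. It had 18, 18 and 10 counts in the 3 libraries at E10.5, 515, 244 and 333 counts in the E11.5 libraries and 608, 721 and 479 counts by E12.5. As CPM, these are 1.07, 1.04 and 0.619 at E10.5, 27.7, 11.7 and 17.5 in the E11.5 libraries and 34.3, 38.9 and 28.6 by E12.5. The stages did not overlap, and the E11.5 libraries were the most spread, with replicate 1 the highest. Inhba rose 20.7-fold in the first day (log2 fold change 4.37, standard error 0.39, edgeR adjusted p = 0.0013) and 37.0-fold over both days (log2 fold change 5.21, standard error 0.28, edgeR adjusted p = 1.53e-06). Without E10.5 replicate 3 these log2 fold changes were 4.16 and 5.01. In the second day the log2 fold change was 0.83 (standard error 0.26) and did not pass (edgeR adjusted p = 0.0585). It passed with DESeq2 (adjusted p = 0.0170), without E11.5 replicate 1 (log2 fold change 1.19, edgeR adjusted p = 0.0101), and with upper quartile normalization, all genes of at least 1 count, the replicate number as a block or the GC trend removed (edgeR adjusted p from 3.48e-05 to 0.0463). It did not pass with DESeq2 size factors in edgeR, in the fit on all 9 libraries or without any 1 of the other libraries (0.0531 to 0.185).

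Inhbb (chromosome 1, 119415465–119422248, minus strand), which encodes the chain of activin B, was close to the limit of detection. It had 5, 7 and 8 counts at E10.5, 2, 7 and 10 counts in the E11.5 libraries and 17, 19 and 16 counts by E12.5. The E12.5 libraries lay above all earlier ones, which overlapped. Its counts were too low for the test in the first day, where DESeq2 gave a log2 fold change of −0.29 (adjusted p = 0.891). In the second day the log2 fold change was 1.57 (standard error 0.49, edgeR adjusted p = 0.0615) and over both days it was 1.29 (standard error 0.44, edgeR adjusted p = 0.0556), so that neither passed. The second-day change passed with all genes of at least 1 count (edgeR adjusted p = 0.0468) and with the replicate number as a block (0.0469), and that over both days with upper quartile normalization (0.0467). Without E10.5 replicate 3 the log2 fold change over both days was 1.47 (edgeR adjusted p = 0.0532).

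Fst (chromosome 13, 114452290–114458951, minus strand), which encodes the activin-binding protein follistatin, rose in both days. Its level was 4.99, 2.32 and 3.53 CPM at E10.5, 13.3, 12.6 and 14.9 CPM in the E11.5 libraries and 24.8, 27.8 and 30.8 CPM by E12.5, with no overlap between stages. The log2 fold change was 1.91 (standard error 0.27, edgeR adjusted p = 0.00466) in the first day, 1.03 (standard error 0.14, edgeR adjusted p = 0.00134) in the second and 2.95 (standard error 0.28, edgeR adjusted p = 3.83e-05) over both. It was the only one of the 10 genes called a DEG in the second day, and its log2 fold change there ranged from 0.94 to 1.10 when each library was left out in turn. E10.5 replicate 3 lay at −0.051 on the log2 scale relative to the mean of replicates 1 and 2, and without it the first rise was 1.90.

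On the CPM per kb scale, the level of Fst was above the sum of the activin chains in all E10.5 libraries and close to it later. The ratio of Fst to Inhba plus Inhbb was 4.59, 1.95 and 3.61 in the E10.5 libraries, 0.664, 1.43 and 1.13 at E11.5 and 0.967, 0.957 and 1.43 by E12.5. Every E10.5 library was above every later one, and E11.5 and E12.5 overlapped. The ratio of Inhbb to Inhba was 0.734 ± 0.413 at E10.5, on no more than 18 counts of either gene per library. It was 0.0313 ± 0.0221 a day later and 0.0439 ± 0.00555 at the last stage (SD, n = 3 libraries). The ratios are descriptions of mRNA levels and were not tested.

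Ltbp1 (chromosome 17, 75005568–75392512, plus strand), the storage protein of latent TGF-beta, rose by similar steps in both days. It was at 52.1, 56.9 and 57.5 CPM at E10.5, at 88.1, 74.6 and 83.9 CPM in the E11.5 libraries and at 128, 159 and 110.3 CPM by E12.5, with no overlap between stages. The log2 fold change was 0.57 (standard error 0.11, edgeR adjusted p = 0.0145) in the first day and 0.68 (standard error 0.15, edgeR adjusted p = 0.0145) in the second. E10.5 replicate 3 lay at 0.077 on the log2 scale relative to replicates 1 and 2, and without it the first rise was 0.60.

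Of the receptors, Tgfbr2 and Tgfbr3 rose while Tgfbr1 fell in the second day. Tgfbr1 (chromosome 4, 47353222–47414931, plus strand), the type I receptor, was at 271, 272 and 396 CPM at E10.5, at 328, 316 and 312 CPM in the E11.5 libraries and at 188, 265 and 200.1 CPM by E12.5. The E12.5 libraries lay below all others, and E10.5 replicate 3 was the highest of the 9. Its log2 fold change was −0.56 (standard error 0.14, edgeR adjusted p = 0.0312) in the second day, and −0.52 (standard error 0.22, edgeR adjusted p = 0.106) over both days. In the first day the log2 fold change was 0.029 (standard error 0.16, edgeR adjusted p = 0.927), but without E10.5 replicate 3 it was 0.24 and passed (edgeR adjusted p = 0.0092). Without either of the other E10.5 libraries it was −0.063 and −0.066, so the first day of Tgfbr1 depended on which E10.5 libraries were kept.

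Tgfbr2 (chromosome 9, 116084293–116175360, minus strand), the type II receptor, was at 23.7, 22.6 and 11.9 CPM at E10.5, at 38.0, 35.6 and 38.1 CPM in the E11.5 libraries and at 53.3, 61.7 and 48.1 CPM by E12.5. The stages did not overlap. The log2 fold change was 0.94 (standard error 0.24, edgeR adjusted p = 0.0399) in the first day, or 0.69 without E10.5 replicate 3, and 0.54 (standard error 0.13, edgeR adjusted p = 0.0224) in the second. Tgfbr3 (chromosome 5, 107106570–107289629, minus strand), the coreceptor betaglycan, was at 17.1, 16.3 and 11.3 CPM at E10.5, at 26.9, 20.5 and 24.8 CPM in the E11.5 libraries and at 29.8, 47.4 and 39.8 CPM by E12.5, again with no overlap. Its first log2 fold change of 0.70 (standard error 0.19) missed the threshold (edgeR adjusted p = 0.0514), and it passed without E10.5 replicate 3 (0.53, edgeR adjusted p = 0.00521) and with DESeq2 (adjusted p = 0.0123). The second was 0.69 (standard error 0.18, edgeR adjusted p = 0.0314).

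The make-up of the 3 receptors moved with these changes. On the CPM per kb scale, Tgfbr1 made up 90.7 ± 3.73% of the receptor sum at E10.5 (SD, n = 3 libraries, 88.3% in the lowest), 85.2%, 86.6% and 85.0% at E11.5 and 72.3%, 73.3% and 71.9% by E12.5, and no library of one stage fell within the range of another. The ratio of Tgfbr2 to Tgfbr1 was 0.0695, 0.0664 and 0.024 at E10.5, 0.0923, 0.0900 and 0.0973 in the E11.5 libraries and 0.226, 0.186 and 0.192 by E12.5. The ratio of Tgfbr3 to the sum of Tgfbr1 and Tgfbr2 was 0.0475 ± 0.0170, 0.0688 ± 0.00820 and 0.149 ± 0.0189 in the same order of stages (SD, n = 3 libraries). Tgfbr1 still had the highest level of the 3 in every library.

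**Figure D2:**
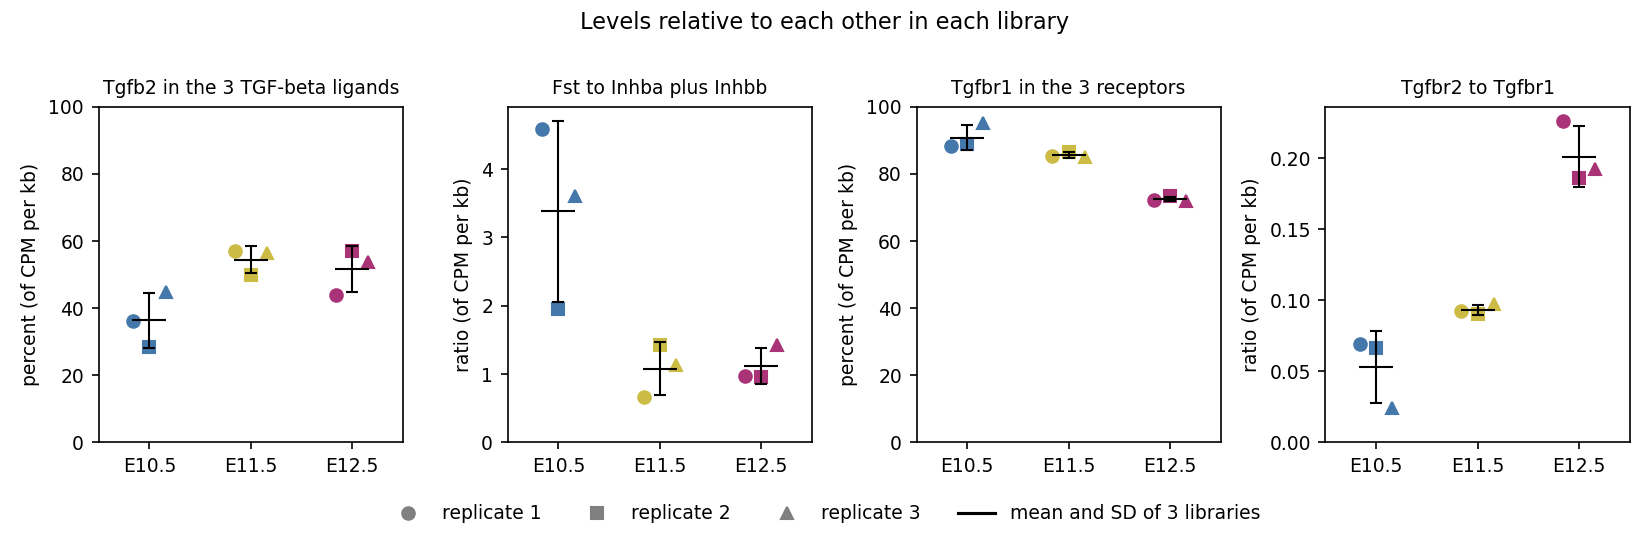
The panels show, from left to right, Tgfb2 as a percent of the 3 TGF-beta ligands, the ratio of Fst to Inhba plus Inhbb, Tgfbr1 as a percent of the 3 receptors and the ratio of Tgfbr2 to Tgfbr1, all from CPM per kb, in each library (points, replicate number as symbol) with the mean and SD of 3 libraries per stage. The Fst ratio is above 1.9 in the 3 E10.5 libraries and at most 1.43 later, and the Tgfbr2 to Tgfbr1 ratio lies between 0.024 and 0.0695 at E10.5 and between 0.186 and 0.226 at E12.5.

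Over the first day, 6 of the 9 genes tested rose, Tgfb2, Tgfb3, Inhba, Fst, Ltbp1 and Tgfbr2, where 6.19% of all 15708 genes tested rose. None fell by edgeR or by DESeq2, where 5.58% of all genes fell by edgeR at an adjusted p of at most 0.05. None was lower at an unadjusted p under 0.05 either. Tgfb2, Inhba and Fst were DEGs, against 6.07% of all genes. The median log2 fold change of the 9 genes was 0.94, and that of all genes −0.032. The calls of Tgfb2, Inhba and Fst held whichever of the 6 libraries was left out. The others depended on single libraries. The call of Tgfb3 was lost without E10.5 replicate 2 and without E11.5 replicate 1, 2 or 3 (edgeR adjusted p from 0.0671 to 0.106), and that of Tgfbr2 in the same fits (0.0660 to 0.152). The call of Ltbp1 was lost without E10.5 replicate 1 (edgeR adjusted p = 0.0501) and without E11.5 replicate 1 or 3 (0.0827 and 0.0881), and with the replicate number as a block (0.0513). Without E10.5 replicate 3, 8 of the 9 genes rose, all but Tgfb1. Without E11.5 replicate 1 or 3, 3 did. More of all genes passed without E10.5 replicate 3 too. There an edgeR p of 0.00219 (Tgfbr1) gave an adjusted p of 0.0092, where 0.00209 (Tgfb3) gave 0.0267 in the reported fit. The share of all genes called is not given for fits that left out a library. The 8 of 9 can therefore not be set beside 6.19%.

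Over the second day, 5 of the 10 genes rose, Tgfb3, Fst, Ltbp1, Tgfbr2 and Tgfbr3, where 7.61% of all 15808 genes tested rose. Tgfbr1 fell, as did 4.57% of all genes, and Fst was the only DEG, against 5.10% of all genes. The median log2 fold change was 0.69 for the 10 genes and 0.019 for all genes. The call of Fst was kept in all 6 fits that left out 1 library. The other calls were close to the threshold. That of Tgfb3 was lost without E11.5 replicate 1 or 3 or E12.5 replicate 1 (edgeR adjusted p from 0.0523 to 0.0555), that of Ltbp1 without E11.5 replicate 2 or 3 or E12.5 replicate 1 (0.0593 to 0.0893), and those of Tgfbr1 and Tgfbr2 without E12.5 replicate 1 or any E11.5 library (0.0708 to 0.123). The call of Tgfbr3 was lost without any E11.5 library or without E12.5 replicate 3 (0.0543 to 0.149). In the fit on all 9 libraries, the calls of Tgfb3, Tgfbr1, Tgfbr2 and Tgfbr3 were lost (0.0551 to 0.146). The numbers that rose were 3, 2 and 1 without E11.5 replicates 1, 2 and 3, and 2 without E12.5 replicate 1.

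Over both days, 7 of the 10 genes rose, and all 7 were DEGs, where 14.0% of all 15899 genes tested rose and 15.0% were DEGs. They were Tgfb2, Tgfb3, Inhba, Fst, Ltbp1, Tgfbr2 and Tgfbr3. Tgfb1, Inhbb and Tgfbr1 did not pass. None fell by edgeR or by DESeq2, where 10.5% of all genes fell by edgeR, and 1 (Tgfbr1) was lower at an unadjusted p under 0.05. In a fit on all 9 libraries Tgfbr1 fell (−0.52, edgeR adjusted p = 0.0398), as it did with the GC trend of each library removed (−0.45, edgeR adjusted p = 0.0388). Without E10.5 replicate 3, its highest library, the log2 fold change of Tgfbr1 was −0.31 and did not pass (edgeR adjusted p = 0.220). The log2 fold changes of the 7 were 2.31 for Tgfb2, 1.68 for Tgfb3, 5.21 for Inhba, 2.95 for Fst, 1.26 for Ltbp1 and 1.40 for Tgfbr3, with a 2.82-fold rise of Tgfbr2 and edgeR adjusted p from 1.53e-06 to 0.00182. The median was 1.45 for the 10 genes and −0.0063 for all genes. All 7 calls were kept in each fit that left out 1 library and under each other setting tried. Without E10.5 replicate 3, the log2 fold changes were 2.24 for Tgfb2, 1.46 for Tgfb3, 2.94 for Fst and 1.29 for Ltbp1. Those of Inhba, Tgfbr2 and Tgfbr3 were 5.01, 1.25 and 1.24 in that fit. The 3 comparisons share libraries and are not independent of each other.

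**Figure D3:**
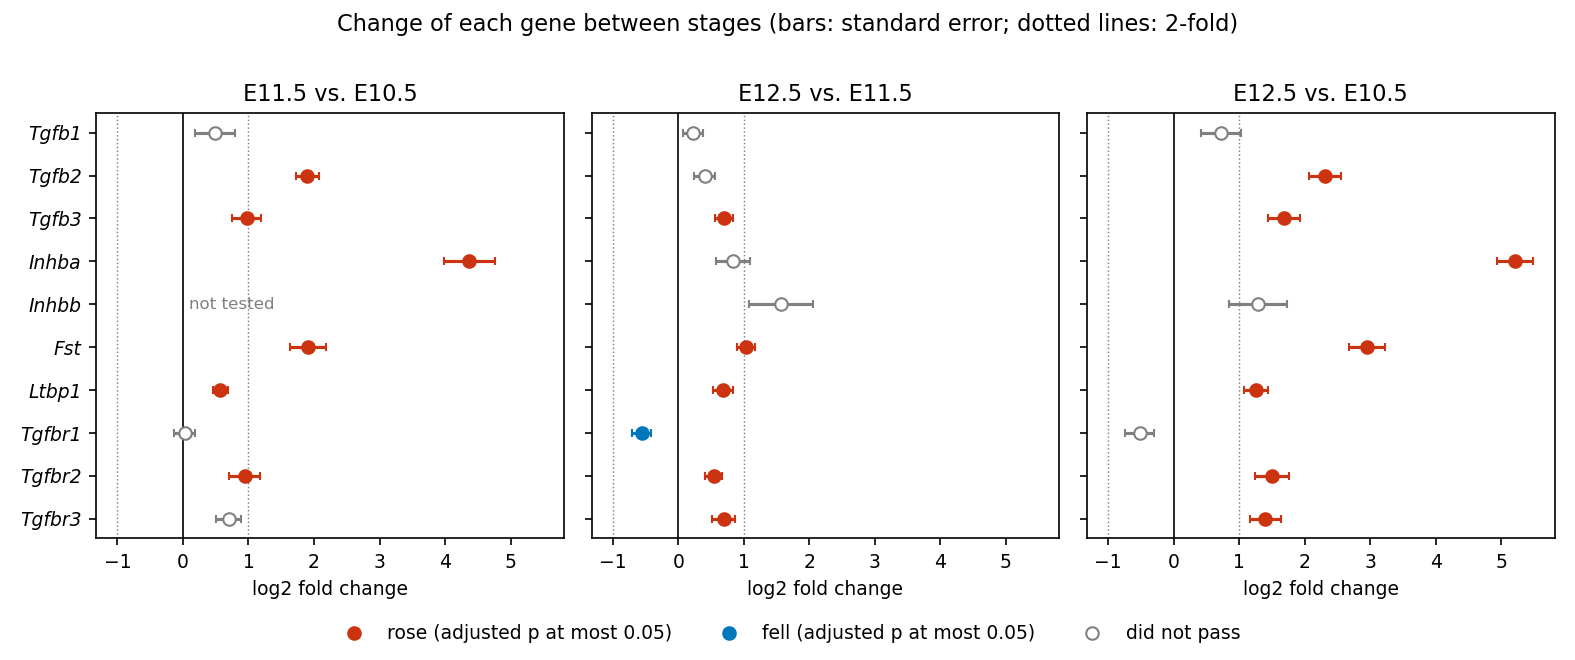
Log2 fold changes (horizontal axis) of the 10 genes in the 3 comparisons from edgeR, with standard errors as bars, zero as a solid line and 2-fold changes as dotted lines. Filled points passed the adjusted p threshold and open points did not; Inhba at 4.37 and 5.21 lies to the right of all others in the comparisons with E10.5, and Tgfbr1 at −0.56 is the only gene called on the left.

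Whether a gene changed by a different amount in the 2 days was tested as the second change minus the first, in 1 fit of all 9 libraries. Inhba passed, with a difference of −3.53 on the log2 scale (standard error 0.50, edgeR adjusted p = 0.00541), where 1.18% of 16375 genes passed in either direction. Its rise was thus larger in the first day than in the second, and the difference was kept in all 9 fits that left out 1 library (−4.03 to −2.77). For Tgfb2 the difference was −1.49 (standard error 0.34) and missed the threshold (edgeR adjusted p = 0.0548). It passed without E10.5 replicate 1 (edgeR adjusted p = 0.0221), E10.5 replicate 3 (0.0360) or E12.5 replicate 2 (0.0319), and with all genes of at least 1 count (5.67e-05). For Fst it was −0.88 (standard error 0.38, edgeR adjusted p = 0.385), and for Tgfbr1 −0.58 (standard error 0.31, edgeR adjusted p = 0.497). Tgfb1, Tgfb3, Ltbp1, Tgfbr2 and Tgfbr3 had differences between −0.39 and 0.12, and Inhbb, on few counts, had 1.86 (standard error 0.93), none of which passed. With standard errors of 0.26 to 0.93 in these 6 genes, differences of moderate size were not detectable.

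The other genes of the pathway were described from 5 lists, whose counts stand beside those of all genes tested, of which 6.19% rose and 5.58% fell in the first day, 7.61% rose and 4.57% fell in the second, and 14.0% rose and 10.5% fell over both. These shares are those of the reported edgeR fits. The share of all genes in other fits is not given, so list counts from other fits cannot be set beside them. Among 17 genes of latency, storage and activation, 2 of 16 tested rose in the first day, 4 of 17 rose in the second day, and 6 rose and 1 fell over both days. The median log2 fold changes of the list were 0.38, 0.15 and 0.47, beside −0.032, 0.019 and −0.0063 over all genes tested. Without E10.5 replicate 3, 9 of the list rose and 1 fell in the first day, and without E11.5 replicate 1 or 3 none passed. In the second day 1 rose without E11.5 replicate 1 or without E12.5 replicate 1. None fell in the second day with the reported test. With DESeq2 the integrin beta chains Itgb3 (−0.63 in the reported fit), named after its values were seen, and Itgb8 (−0.66) fell. Both also fell with all genes of at least 1 count, with the replicate number as a block and without E12.5 replicate 2, where 3 of the list fell. Ltbp3, a second TGF-beta binding protein, was at 26.2 ± 3.56 CPM at E11.5 and 71.1 ± 10.5 CPM a day later (SD, n = 3 libraries), with log2 fold changes of 1.13 (edgeR adjusted p = 0.0135) and 1.43 (edgeR adjusted p = 2.87e-04). Its first rise was lost without E11.5 replicate 1 or 3 (edgeR adjusted p up to 0.0803). Ltbp2, at no more than 7 counts in any library before E12.5, rose in the second day (log2 fold change 2.77, edgeR adjusted p = 0.0153), a call lost without E11.5 replicate 1 or 3 or E12.5 replicate 1. Fbn1, the fibrillin to which these proteins bind, rose in the first day (1.08, edgeR adjusted p = 0.0264), which was lost in 4 of 6 fits that left out a library, E10.5 replicate 2 or any of E11.5, and differed by 0.025 in the second. Without E12.5 replicate 2, Fbn1 fell in the second day. Over both days the integrin beta chain Itgb6 rose (1.43, edgeR adjusted p = 0.0119) and Itgb8 (−1.55, edgeR adjusted p = 0.0129) fell, the latter call being lost without E12.5 replicate 1 or 3. The log2 fold change of Itgb8 over both days ranged from −1.85 to −0.96 with each library left out. Ltbp4 and Thbs1, named after their values were seen, were the others that rose in the second day (0.71 and 0.49) and over both (0.86 and 0.73). The second-day calls of both were lost without E11.5 replicate 1 or 2 or E12.5 replicate 1, and that of Thbs1 also without E11.5 replicate 3. Neither second-day call was made in the fit on all 9 libraries, and that of Ltbp4 was also lost with the GC trend removed and that of Thbs1 with the replicate number as a block. Over both days the call of Ltbp4 was lost without any one of the E12.5 libraries (edgeR adjusted p up to 0.101) and that of Thbs1 without E10.5 replicate 2 (edgeR adjusted p = 0.0503).

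Of 12 other activin, inhibin and nodal ligands and antagonists, no more than 4 had enough counts to be tested in a comparison. Mstn, the ligand myostatin, had up to 47 counts per library at E10.5 and no more than 3 at E11.5, and it fell in the first day (log2 fold change −4.32, standard error 0.62, edgeR adjusted p = 0.00507), a call kept in all 6 fits that left out a library. The summed level of skeletal muscle markers was 40.5–74.5 CPM at E10.5 and had a median of 104 CPM at E11.5, and that of forebrain and eye markers was 348–464 CPM and 121–137 CPM. The part of these cells in the fall of Mstn was not tested. The ligand Gdf11 (−0.53) fell and Inha (0.84), the inhibin alpha chain, rose in the second day, both named after their values were seen. The call of Gdf11 was lost without E11.5 replicate 2 or 3 or E12.5 replicate 1, and that of Inha without any E11.5 library or E12.5 replicate 1. Neither was called in the fit on all 9 libraries. Of 8 other receptors and coreceptors, Acvr2b, a type II receptor of activins, was the only one that passed in any comparison with the reported edgeR test. It fell in both days, from 72.6 ± 17.5 CPM in the E10.5 libraries to 37.8 ± 1.25 CPM (log2 fold change −0.94, edgeR adjusted p = 0.0145) and then to 16.4 ± 7.90 CPM (edgeR adjusted p = 0.0138). The first fall was lost without any E11.5 library (edgeR adjusted p up to 0.0837) and the second without E12.5 replicate 1 (0.0913), while that over both days, −2.13, was kept in all 6 fits. Without E12.5 replicate 2, 4 genes of this list fell and 1 rose in the second day. The coreceptor Eng, named after its values were seen, rose in that fit, without E12.5 replicate 3 and with upper quartile normalization. Over both days Eng rose with all genes of at least 1 count and with the replicate number as a block.

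Of 17 intracellular transducers and regulators, 1 rose in the first day, where 6.19% of all genes did. None passed in either direction in the other 2 comparisons with the reported edgeR test or with DESeq2. Over both days 2 rose and 1 fell in the fit on all 9 libraries, and likewise with the replicate number as a block. There 1 fell with the GC trend removed and 1 rose with all genes of at least 1 count. In the second day 1 fell with all genes of at least 1 count. At an unadjusted p under 0.05, 1 was higher and 4 were lower in the second day, and 2 were higher and 1 lower over both days. The gene that rose was the corepressor Tgif1 (log2 fold change 0.38, edgeR adjusted p = 0.0416), named after its value was seen, and the call was kept in 1 of 6 fits that left out a library, the one without E10.5 replicate 3. Log2 fold changes in the list lay between −0.64 and 0.59 in all 3 comparisons. The counts moved with single libraries, to 5 genes that rose and 2 that fell in the first day without E10.5 replicate 3, and to 7 that fell in the second without E12.5 replicate 2. More of all genes passed in both of these fits, so the counts are not a result about this list alone. In the reported second-day fit an edgeR p of 0.00792 (Inhba) gave an adjusted p of 0.0585. Without E12.5 replicate 2 an edgeR p of 0.0081 (Tgfbr3) gave 0.0315. Smad2 was at 68.4 ± 2.81, 68.3 ± 4.37 and 56.8 ± 11.2 CPM, and Smad3 at 175 ± 7.35, 195 ± 2.90 and 181 ± 31.4 CPM, in the order of the stages (SD, n = 3 libraries). Both were named after their values were seen.

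Of 17 genes known from other systems to be induced by TGF-beta, 5 rose and 2 fell of 15 tested in the first day, 8 of 16 rose in the second day and 7 of 15 rose over both days. Of all genes tested, 6.19% rose and 5.58% fell in the first day, 7.61% rose in the second and 14.0% rose over both. The median log2 fold changes of the list were 0.74, 0.54 and 0.72 in the same order, beside −0.032, 0.019 and −0.0063 over all genes tested. None fell in the later 2 comparisons with the reported edgeR test or DESeq2, where 2 and 0 were lower at an unadjusted p under 0.05. In the second day 1 fell with all genes of at least 1 count, and 10 rose and 2 fell without E12.5 replicate 2. The log2 fold changes of Postn, the matrix protein periostin, were 1.86 in the first day and 1.66 in the second. Col1a1, a chain of type I collagen, rose by 2.69 in the first day and also in the second (1.31–1.69 with each library left out), and the calls of both genes were kept in all fits that left out a library. Eln, the gene of elastin, rose by 2.11 and 1.13, the first call being lost without E10.5 replicate 2 or any E11.5 library, and the second in the fit on all 9 libraries. Snai2, a transcription factor of mesenchymal cells, rose in the first day (1.68, and 1.62–1.76 with each library left out). Facial mesenchyme markers also differed between these stages, with sums of 1194–1982 CPM at E10.5 and 2665–2830.1 CPM at E11.5, and their part in the values was not tested.

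The remaining genes of that list did not share 1 course. The cell-cycle inhibitor Cdkn2b, on no more than 3 counts per library at E10.5, rose in the first day (3.54, edgeR adjusted p = 0.0103), which was lost without E11.5 replicate 1 or 3. Cdkn1a, another inhibitor, and Acta2, smooth muscle actin, fell in the first day (−0.80 and −1.11) and rose in the second (1.04 and 1.23). With each of the 6 libraries left out in turn, the fall of Cdkn1a was kept without E10.5 replicate 1 or 3, and that of Acta2 without E10.5 replicate 3 alone. Both falls were also lost with the replicate number as a block. The rise of Acta2 was lost without any E11.5 library, and that of Cdkn1a was kept. Ctgf, a matricellular growth factor gene, rose in the second day (1.26, edgeR adjusted p = 0.00295), and Pmepa1, a feedback inhibitor of TGF-beta signaling, rose in the second (0.78, edgeR adjusted p = 0.00707) and over both days (1.78, edgeR adjusted p = 8.60e-04). The second-day call of Pmepa1 was lost without E11.5 replicate 2 (edgeR adjusted p = 0.0548) and in the fit on all 9 libraries. Ltbp2 belongs to this list as well as to that of latency, storage and activation, and Smad7 and Skil also to the transducers. Smad7 (0.51 and 0.064) and Skil (0.22 and −0.43), both often read as early responses to TGF-beta, did not pass in the first or second day with the reported test and were named after their values were seen. Skil rose in the first day without E10.5 replicate 3. It fell in the second without E12.5 replicate 2 and with all genes of at least 1 count. Without E10.5 replicate 3, 10 genes of the list rose in the first day, and without E11.5 replicate 1 or 3, 3 did.

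**Figure D4:**
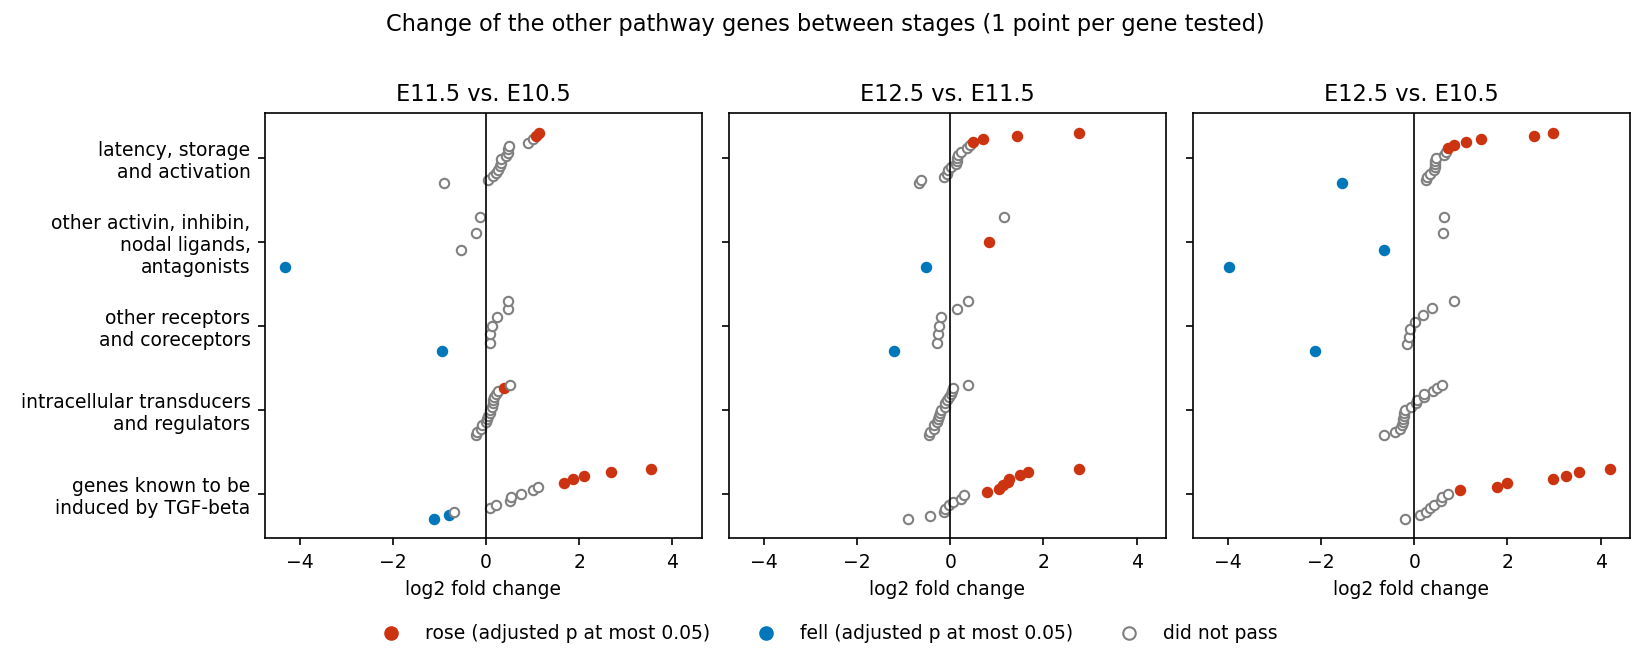
Each point is the log2 fold change (horizontal axis) of 1 gene tested, grouped by the 5 lists (rows) in the 3 comparisons, with red points for genes that rose, blue points for genes that fell and open points for those that did not pass. The transducers lie between −0.64 and 0.59 throughout, while the list of induced genes reaches 4.20 (Col1a1, E12.5 vs. E10.5) and that of other ligands −4.32 (Mstn, E11.5 vs. E10.5).

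Markers of other cell types differed between stages beside these genes. The summed level of 8 surface ectoderm markers was 395–713 CPM at E10.5, 419–442 CPM at E11.5 and 659–736 CPM at E12.5. Forebrain and eye markers were at 348–464 CPM at E10.5 and at 121–156 CPM later, and macrophage markers at 21.1–33.5, 32.6–36.8 and 41.7–44.3 CPM in the order of stages. Endothelial markers were at 313–321 CPM at E11.5 and 269–336 CPM at E12.5. Apart from Otp in the E11.5 libraries and Matn4 in the E10.5 libraries, every marker was found in at least 1 library of each stage. The part of these differences in the levels of the 10 genes was not tested.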

How the data were processed

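The authors mapped the reads of the 9 libraries to GRCm38/mm10 with HISAT2 2.0.5, counted them per gene with featureCounts and deposited 1 table. Its count columns hold the authors' raw read counts per gene, and its FPKM columns the authors' FPKM values, used here only as an alternative level. Columns with the authors' own fold changes and p-values were not used. Whether counting used the strand, and how reads with several positions were treated, is not given in the sources used here.

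Each pair of stages was fitted in R 4.3.3 with edgeR 4.0.16 (filterByExpr, TMM, quasi-likelihood test, two-sided, Benjamini-Hochberg over all genes tested) on its 6 libraries. The study used DESeq2, which is an alternative here. The standard error of a log2 fold change is its size over the root of edgeR's F statistic. Depth was 16581009–20836804 counts per library, and low counts limit precision by counting error. The 10 genes and the lists were chosen with earlier results of these data known. All 10 genes are named, and list genes are named where they were DEGs. Alternatives were DESeq2 1.42.0, its size factors, upper quartile normalization, no filter, a fit on the 9 libraries together, a block for the replicate number, each library left out and, per library, removal of the trend with GC content (lowess, span 0.3). For the interval difference the GC alternative, and the list alternatives and shares of a sum, were added after the data were seen. Gene coordinates are those of the table (GRCm38). Exon overlaps and GC content come from GENCODE vM21, in which 54495 identifiers were found. The scripts were tested on simulated data. Tables and figures were made with Python 3.11.15, pandas 2.3.3 and matplotlib 3.10.9.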

Additional observations from a re-analysis of the deposited data

Results flagged for a closer look

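The change of Inhba differed between the 2 days. Its log2 fold change was 4.37 in the first day (E11.5 against E10.5) and 0.83 in the second, and the second minus the first was −3.53 (standard error 0.50, edgeR adjusted p = 0.00541 from the quasi-likelihood test with Benjamini-Hochberg adjustment over all genes tested). All 3 E11.5 libraries were above all E10.5 libraries, and all E12.5 libraries above all E11.5 libraries. The difference was −3.42 after removal of each library's GC trend and −3.36 without E10.5 replicate 3, the library that stood apart.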

How the results depend on the processing

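The number of the 10 genes that rose was between 3 and 8 in the first day when each library was left out in turn, between 1 and 5 in the second day, and 7 in each such fit over both days. The share of all genes called is not given for these fits, so the counts are not a result about the 10 genes alone. The number that fell in the second day was between 0 and 1, and the number with a different change in the 2 days between 1 and 2. The fit on all 9 libraries gave 2 that rose and 0 that fell in the second day, and 1 that fell over both days, as did removal of the GC trend (1). With all genes of at least 1 count, 2 had a different change in the 2 days. Tgfbr1 changed sign in the first day (−0.066 to 0.24 with each library left out). Of the differences between the 2 days, Tgfb1 ranged from −0.45 to 0.0030, Ltbp1 from −0.026 to 0.23 and Tgfbr3 from −0.20 to 0.19 with each library left out, and Tgfbr3 was −0.024 with all genes of at least 1 count. The cause was not tested. Whether the replicate numbers pair the libraries is not settled by how the libraries deviate from their stage means. Those deviations correlated between −0.151 and 0.22 for libraries with the same number, and between −0.219 and 0.223 for different numbers. Between E10.5 and E12.5, pairs with the same number had 0.178, 0.07 and 0.22, and the others lay between −0.219 and 0.153. With the number as a block, 5, 7 and 8 of the 10 genes rose in the first day, in the second and over both, against 6, 5 and 7 without it, and the difference of Tgfbr3 was −0.013. Of the other alternatives for single fold changes, 323 kept direction and side of the threshold, 18 passed where the reported value had not, and 34 no longer passed. The levels and ratios moved by less than 1 SD between replicates in 216 of 216, which says little about their stability. Leaving out 1 of 3 libraries cannot move their mean by 1 SD, and the authors' FPKM come from the same counts. The limit of depth was reached by Inhbb, with 2 to 19 counts per library.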
